A study of Salvia miltiorrhiza with 5 samples.

Results

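The stem library of *Salvia miltiorrhiza*, a medicinal sage grown for its root, was compared with the root, leaf and flower libraries of the same study. Small RNA was sequenced from whole organs of plants cultivated for 8 months in a field and collected at florescence, with no treatment, cultivar or genotype given for the libraries. There was 1 library per tissue among the 5 samples of the series, the remaining sample being a degradome library of the 4 tissues mixed. No value therefore has a replicate, no test between tissues was possible, and every difference is one between libraries. Tissue identity could not be checked against marker genes, since the tables used here hold small RNAs and cleavage sites only.

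The table of expressed miRNAs lists 650 entries for 488 names, which come down to 241 distinct sequences. The 95 sequences with 10 or more reads over the 4 libraries are described, 76 of them with names from miRBase, the register of known miRNAs, and 19 predicted by the authors, whose names start with PC. They hold 99.98% of the stem's table reads, and the other 146 sequences fell below the minimum. Of the 95, 91 were found in stem, 51 with 10 or more stem reads and 19 with 1 to 3. Table reads, the sum over all entries, came to 380306 for stem, 499434 for root, 238148 for leaf and 494824 for flower. To obtain normalized counts the authors multiplied the reads of a library by a constant, 0.715 for stem, 0.547 for root, 1.90 for leaf and 1.41 for flower. Intervals given below are at 95% and cover counting error only, neither differences between plants nor between library preparations.

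Plant miRNAs are cut from hairpin precursors and loaded into ARGONAUTE proteins, where they guide the cleavage or repression of messenger RNAs with a matching site. Most conserved families act on transcription factors that pattern shoots, flowers and roots, while others act on hormone receptors, nutrient transporters and copper proteins. The stem carries the vascular tissue between root and leaf, and miR166, miR164, miR167 and miR397 families are known from other plants for their targets in vascular or wood development.

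The 4 sequences that were at least 2 times higher in stem on every scaling are shown first, with bases 2 to 8 from the 5′ end, the seed, in capitals.
nta-miR172d: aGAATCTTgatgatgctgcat
mtr-miR172c-5p: gTAGCATCatcaagattcaca
mtr-miR172c-5p_R-1: gTAGCATCatcaagattcac
aqc-miR396b_R+3: tTCCACAGctttcttgaacttttt

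The next set holds the abundant sequences with the highest normalized count in stem, together with the close relatives that did not follow them and whose ratios are given further on.
csi-miR396a_1ss21GT: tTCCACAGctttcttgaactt
gma-miR396a-5p: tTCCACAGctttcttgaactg
har-miR403a: tTAGATTCacgcacaaactcg
peu-miR2916_R-4_1ss6AG: tGGGGGCTcgaagacgatc
tcc-miR172d_1ss1AT: tGAATCCTgatgatgctgcat

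The last set holds sequences that were at least 2 times lower in stem than the mean of the other libraries by normalized counts. They carry the results on auxin, copper, phosphate and organ boundary families. For cpa-miR390a, gma-miR393a_R+1_1ss21CT and osa-miR171b stem lay above root, and flower was highest.
dpr-miR167a: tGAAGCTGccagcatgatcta
gma-miR393a_R+1_1ss21CT: tCCAAAGGgatcgcattgattt
cpa-miR390a: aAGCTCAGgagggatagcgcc
csi-miR164: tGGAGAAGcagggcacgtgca
lus-miR171h_L-1R+1: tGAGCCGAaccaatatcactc
osa-miR171b: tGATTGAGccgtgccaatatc
aly-miR408-3p_L-1R+1: tGCACTGCctcttccctggct
mdm-miR397a_1ss20AC: tTGAGTGCagcgttgatgaca
aqc-miR398b_L+2R-2: cATGTGTTctcaggtcgcccc
mtr-miR399k_1ss13TA: tGCCAAAGaagaattgccctg
aly-miR858-5p_L-1R+1_1ss5GA: tTCATTGTctgttcgaccttg

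The sequences come from the deposited table, which writes T for U, and the name of each starts with the species of its closest miRBase entry and ends with how it differs from that entry. The dominant 5p sequence of the miR396 family, csi-miR396a_1ss21GT, differed from gma-miR396a-5p at the last base alone, T21G counted from the 5′ end, and both share the seed with aqc-miR396b_R+3. By contrast, nta-miR172d and tcc-miR172d_1ss1AT differed by A1T and T7C, so their seeds are not the same. The 95 sequences carry 81 seeds, and 9 seeds are shared by 2 or more of them.

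By normalized counts more sequences were called low than high in stem, against the mean of the other libraries. Of the 95 sequences, 4 (4.21%) were at least 2 times higher in stem than the mean of root, leaf and flower, and 45 (47.4%) were at least 2 times lower. The median log2 difference was -0.92, or -0.90 with sequences of under 1 stem read placed at their bound. On the same counts it was -0.31 against the median of the other libraries, and -0.41 against their mean without flower. By the share of each library's table reads the median was -0.16, with 17 sequences (17.9%) at least 2 times higher and 25 (26.3%) at least 2 times lower. Leaving the 10 most abundant sequences out of the shares gave a median of -0.04, and reads per 1000000 clean reads gave -0.45. On every scaling 4 sequences were 2 times higher and 25 were 2 times lower.

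The 45 sequences that were low in stem did not share one high tissue. Their highest library was flower for 24, root for 11 and leaf for 10, and a single high library raises the mean they were set against. Counting error left 14 of them with the whole interval below -1, and 2 of the 4 high sequences with the whole interval above 1.

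**Figure D1:**
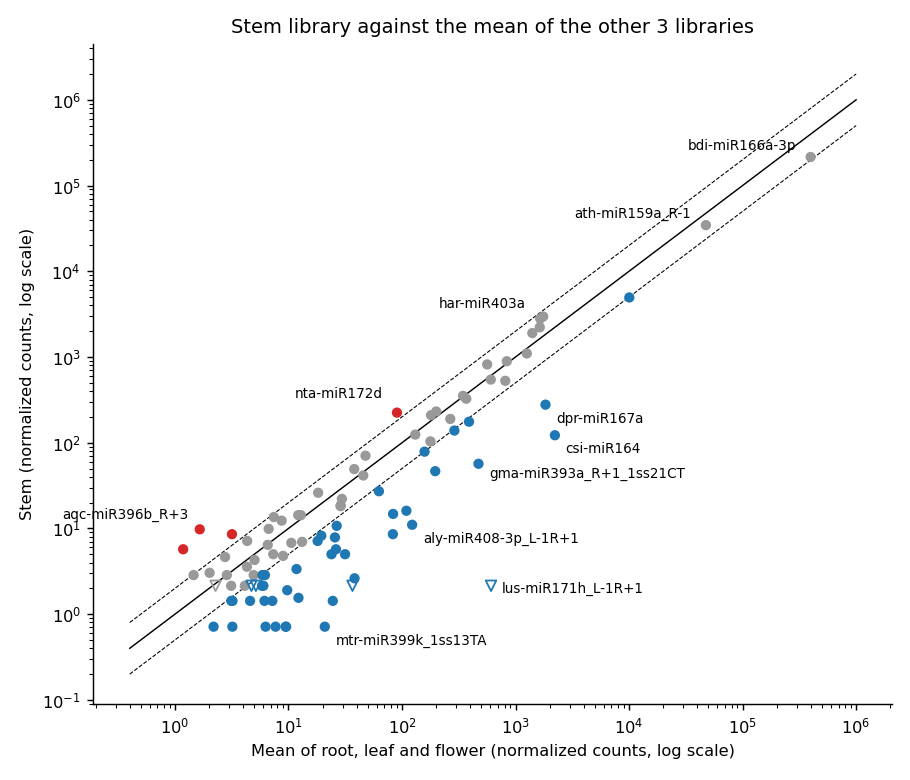
Normalized counts of the 95 sequences in stem (vertical, log scale) against the mean of root, leaf and flower (horizontal, log scale). Red points are at least 2 times higher in stem (4) and blue points at least 2 times lower (45), the solid line marks equal values, dashed lines mark 2-fold differences, and open triangles are sequences with under 1 stem read drawn at 3 reads. Most points lie below the line of equal values.

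Stem had the highest normalized count of the 4 libraries for 10 sequences (10.5%), and all 10 were also highest by shares, by shares without the 10 most abundant and per 1000000 clean reads. For 4 of the 95 (4.21%), the interval of stem did not overlap that of the next library. These 4 were nta-miR172d, har-miR403a, csi-miR396a_1ss21GT and peu-miR2916_R-4_1ss6AG.

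The miR172 family represses AP2-like transcription factors that delay flowering and specify floral organs. By normalized counts it was the one family of 37 (2.7%) whose sum was at least 2 times higher in stem, at 2.05 times. By shares 4 of the 37 were at least 2 times higher, miR172, miR403, miR396 and miR2916. The main miR172 sequence, nta-miR172d, had 314 stem reads, where root had 304, leaf 47 and flower 11. In the order root, stem, leaf and flower these are 166.1, 224, 89.4 and 15.5 normalized counts, with intervals of 148 to 186 for root and 200.3 to 251 for stem. Stem was highest and root came next, while flower was lowest by a wide margin. The log2 difference from the mean of the others was 1.31 (1.08 to 1.55), and 1.58 by shares. Stem was 1.35 times root (1.15 to 1.58), 2.51 times leaf (1.84 to 3.49) and 14.5 times flower (7.98 to 29.3). The excess over root was thus small beside that over flower, and without flower the log2 difference was 0.81.

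The other miR172 sequences were too rare for a firm order. The 5p strand of the miR172c precursor, mtr-miR172c-5p, had 3, 8, 1 and 0 reads in root, stem, leaf and flower, with a log2 difference of 2.28 (0.31 to 4.24). Its form without the last base, mtr-miR172c-5p_R-1, had 7, 12, 3 and 0 reads and a difference of 1.43 (0.09 to 2.78). Both stem intervals overlapped those of root and leaf, and without flower the differences were 1.69 and 0.85. The sum over their shared seed was 20 reads in stem against 10 in root, 4 in leaf and 0 in flower.

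The miR403 sequence, har-miR403a, which in *Arabidopsis* acts on AGO2, an ARGONAUTE gene of antiviral defence, was highest in stem with 2797 normalized counts. Root had 1299, leaf 2158 and flower 1489. No interval of the other libraries reached that of stem, which ran from 2710 to 2886. Stem was 2.15 times root (2.04 to 2.27), 1.30 times leaf (1.21 to 1.39) and 1.88 times flower (1.75 to 2.01), for a log2 difference of 0.76 (0.70 to 0.83) from the mean of the others. By shares it made up 1.03% of stem reads against 0.475%, 0.477% and 0.214%, a log2 difference of 1.41, so that its call at 2-fold depended on the scaling. Without leaf the difference by normalized counts was 1.004.

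The miR396 family acts on growth-regulating factors, transcription factors of cell proliferation. Its main sequence, csi-miR396a_1ss21GT, had 2965 normalized counts in stem, while root had 1360, leaf 2179 and flower 1722. Here too stem stood above the intervals of the other libraries, with leaf next. The log2 difference was 0.76 (0.69 to 0.82), and 1.42 by shares. The close relative gma-miR396a-5p did not follow it, with 527 for stem, 674 for root, 1301 for leaf and 462 for flower, a difference of -0.62 (-0.75 to -0.50) that turned to 0.22 by shares without the 10 most abundant sequences. Summed over the seed the 3 sequences of this family gave 3502 normalized counts in stem and 3480 in leaf, which are close to each other. By shares the same sum was 1.29% of stem reads and 0.768% of leaf reads, so the closeness depended on the scaling. The 24-nt form aqc-miR396b_R+3, which adds 3 bases to csi-miR396a_1ss21GT, had 13.7 reads in stem, 9.07 in root and 0 in both leaf and flower. Its stem interval, 5.30 to 16.5 normalized counts, overlapped that of root, 2.28 to 9.40. Its log2 difference was 2.56 (1.35 to 3.77), and without root it was at least 0.98, with 3 reads as the limit for leaf and flower.

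The remaining sequences with stem highest differed less. The normalized counts of peu-miR2916_R-4_1ss6AG were 2220 for stem, 1645 for root, 1430 for leaf and 1829 for flower, a log2 difference of 0.44 (0.37 to 0.51), with no overlap of the stem interval. The miR156 star sequence bdi-miR156d-3p_3ss7TC8G-13GC had 69 stem reads, and its normalized count of 49.3 was also that of flower. A 23-nt form of miR166, ptc-miR166n_L+4R-2, had 4.25 stem reads, and the predicted PC-3p-115345_10 had 20 with normalized counts between 12.6 and 14.3 in all 4 libraries. For these last 3 the order could not be told from counting error.

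**Figure D2:**
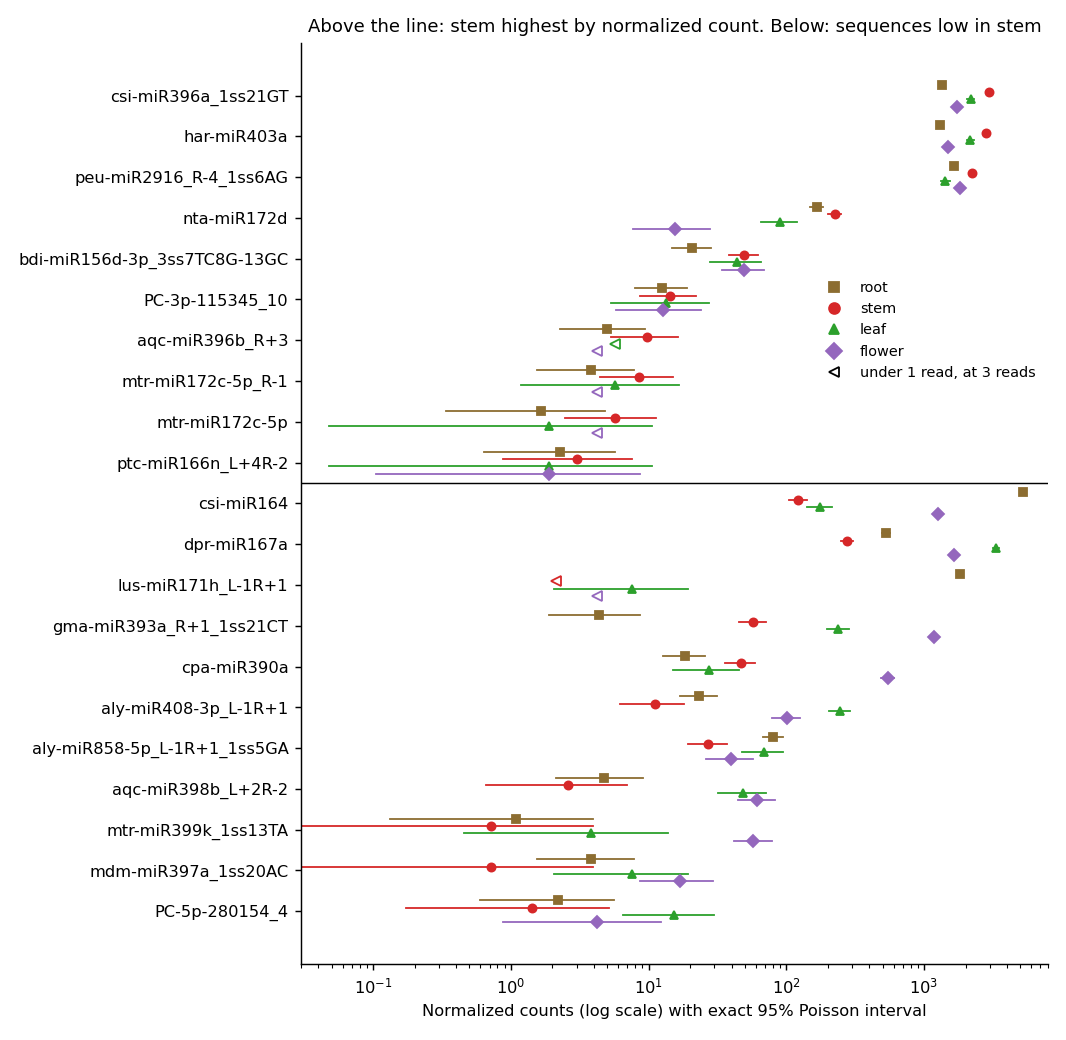
Normalized counts (log scale) in root, stem, leaf and flower, each point being 1 library with its exact Poisson interval. Above the line are the 10 sequences with stem highest. Below it are 11 sequences that were lower in stem than the mean of the other libraries, not all of them lowest in stem. Open triangles mark libraries with under 1 read, drawn at 3 reads, and the stem intervals of mtr-miR399k_1ss13TA and mdm-miR397a_1ss20AC, with 1 read each, run past the left edge. The stem circle stands clear of the other libraries for csi-miR396a_1ss21GT, har-miR403a, peu-miR2916_R-4_1ss6AG and nta-miR172d, and clear below them for dpr-miR167a.

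Stem was the lowest of the 4 libraries for 16 sequences (16.8%) by normalized counts, and without overlap of the intervals for 2 (2.11%), dpr-miR167a and bdi-miR166e-5p. On every scaling it was lowest for 6: dpr-miR167a, aly-miR408-3p_L-1R+1, mdm-miR397a_1ss20AC, aqc-miR398b_L+2R-2, mtr-miR399k_1ss13TA and the predicted PC-5p-280154_4.

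Of the auxin families, 3 of 4 were at least 2 times lower in stem by family sums, where 15 of 37 families (40.5%) were. The median log2 difference of these 4 was -2.38 and that of all 37 families was -0.48. By shares 2 of the 4 were 2 times lower, against 9 of the 37. The leading sequence was dpr-miR167a, of the family that represses the auxin response factors ARF6 and ARF8 in *Arabidopsis*. It had 389 stem reads, where root had 964, leaf 1759 and flower 1162, and its normalized counts were 278 for stem against 528, 3345 and 1636. Stem was lowest by a factor of 6.61 against the mean of the others, with a log2 difference of -2.72 (-2.88 to -2.57), -1.93 by shares and -1.96 without leaf. Set against each library, stem was 0.527 times root (0.467 to 0.593), 0.0831 times leaf and 0.170 times flower.

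The miR393 family, which acts on TIR1-type auxin receptors, was highest in flower rather than lowest in stem. The 22-nt gma-miR393a_R+1_1ss21CT had 4.38, 56.8, 238 and 1173 normalized counts in root, stem, leaf and flower, with a log2 difference of -3.05 (-3.38 to -2.72). Stem lay between root and leaf, and none of the 4 intervals overlapped. Without flower the difference was -1.09. The form shorter by 1 base, gma-miR393a_1ss21CT, gave 2.74, 16.1, 39.9 and 285, and -0.41 without flower. For cpa-miR390a, the trigger of trans-acting siRNAs against auxin response factors, the normalized counts were 18.3, 46.6, 27.3 and 543. Its log2 difference of -2.08 (-2.45 to -1.70) rested on flower, and without flower the difference was 1.03. The miR160 sequence nta-miR160a, of a family against other auxin response factors, had 20 stem reads and a log2 difference of 0.23.

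All 3 families of copper proteins were at least 2 times lower in stem by family sums, on normalized counts and on shares, with a median log2 difference of -3.48 and -2.66. Over all families 15 of 37 were lower by normalized counts and 9 by shares, with medians of -0.48 and 0.23. Their targets in other plants are laccases for miR397, copper superoxide dismutases for miR398, and plantacyanin and laccases for miR408. The miR408 sequence aly-miR408-3p_L-1R+1 had 15.4 stem reads, where root had 42.8, leaf 129 and flower 71.3, and its normalized counts were 11.0 against 23.4, 245 and 100.4. Leaf was highest and stem lowest, although the stem interval of 6.24 to 18.1 just overlapped that of root from 16.9. The log2 difference was -3.48 (-4.22 to -2.73), and -2.49 without leaf. The miR397 sequence mdm-miR397a_1ss20AC had 7, 1, 4 and 12 reads in root, stem, leaf and flower, so its difference of -3.72 rested on 1 stem read. For aqc-miR398b_L+2R-2 the reads were 8.67, 3.67, 25.7 and 43.3, with a difference of -3.87 (-5.38 to -2.35), and for ppe-miR398b_R-1_1ss2GA they were 3, 7, 28 and 12, with -2.26 (-3.41 to -1.10) and -0.89 without leaf. By normalized counts root was nearest to stem in all of these, and leaf and flower held most of the reads. By shares flower was nearest for ppe-miR398b_R-1_1ss2GA, where stem lay above root on both scalings.

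The phosphate and sulfate families repeated the pattern of a high flower or leaf at low depth. All 3 measured families of 4 listed were at least 2 times lower by normalized counts and 2 by shares, where 15 and 9 of the 37 families were. Of miR399, which acts on the ubiquitin conjugase PHO2, mtr-miR399k_1ss13TA had 2, 1, 2 and 41 reads in root, stem, leaf and flower, and gma-miR399a_1ss8GT had 4.03, 4.70, 3.35 and 18.98. Their log2 differences were -4.87 (-7.73 to -2.01) and -1.81 (-3.23 to -0.38), and without flower -1.78 and -0.35. The miR827 sequence csi-miR827_1ss9CT had 8, 7, 20 and 37 reads, and the miR395 sequence cpa-miR395a_L+1 had 0, 3, 8 and 2.

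Among the families of meristem, organ boundary and leaf polarity, 3 of 7 were at least 2 times lower in stem by normalized counts, miR164, miR171 and miR394, a share close to the 15 of 37 over all families. By shares 2 of the 7 were lower and 1 higher. The median over the 7 was -0.88 by normalized counts. Of miR164, which acts on the NAC factors of organ boundaries, csi-miR164 had 122 normalized counts in stem, 5223 in root, 175 for leaf and 1267 for flower, so root was far above the rest. The stem interval, 105 to 142, just overlapped that of leaf, 141 to 215. The log2 difference was -4.18 (-4.40 to -3.97) and -3.98 by shares, but by shares leaf and not stem was lowest. Without root it was -2.56. Stem was 0.0234 times root (0.0200 to 0.0272) and 0.699 times leaf (0.539 to 0.910). The form shorter by 1 base, lus-miR164a_R-1, had 108, 2, 1 and 9 reads, and the star sequence zma-miR164c-3p_2ss7CT16TC had 313, 12, 4 and 50. Root was highest and flower next in both by normalized counts, and stem and leaf were low, 1.43 and 1.90 for the former and 8.58 and 7.61 for the latter. Without root their log2 differences moved from -4.10 to -2.35 and from -3.28 to -2.19.

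The sharpest contrast was that of lus-miR171h_L-1R+1, of the family against GRAS transcription factors, with 3319 root reads but 0.5 in stem, 4 in leaf and 0 in flower. With 3 reads as the limit for stem, its log2 difference was at most -8.15, and without root at most -0.83, so it rested on root. A second member, osa-miR171b, had 11.5, 20.7, 9.33 and 161 reads, was highest in flower, and differed by -2.50 (-3.16 to -1.84). The difference of osa-miR171b turned to 0.30 without flower. The miR394 sequence ath-miR394a, against an F-box gene of the shoot meristem, was 2 times lower by normalized counts, with a log2 difference of -1.01 (-1.31 to -0.70), and -0.40 by shares, -0.89 without root and -0.73 without flower.

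Other abundant sequences were near the 2-fold limit. The miR858 sequence aly-miR858-5p_L-1R+1_1ss5GA, of a family against MYB factors of phenylpropanoid synthesis, had 146, 38, 36 and 28 reads in root, stem, leaf and flower. Its normalized counts were 79.9, 27.2, 68.5 and 39.4, lowest in stem with an interval that overlapped flower, and its log2 difference was -1.20 (-1.72 to -0.69). By shares that was -0.74, with flower lowest. The star strand bdi-miR166e-5p had 379, 176, 281 and 507 normalized counts and -1.15 (-1.35 to -0.94), which was -0.50 by shares. The third most read stem sequence, ppt-miR894_R+1, had 11656, 4946, 5167 and 13334, with -1.02 (-1.06 to -0.98), and -0.42 by shares. The miR156 sequence lus-miR156a, of the family against SPL factors that promote the adult phase, had 139 for stem, 68.4 for root, 407 for leaf and 392 for flower, with -1.06 (-1.30 to -0.82) and -0.16 by shares. For these 4, the call of 2-fold held by normalized counts and was lost by shares. It was also lost without root for aly-miR858-5p_L-1R+1_1ss5GA (-0.99) and ppt-miR894_R+1 (-0.90), without leaf for lus-miR156a (-0.73), and without flower for bdi-miR166e-5p (-0.91), ppt-miR894_R+1 (-0.77) and lus-miR156a (-0.78).

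**Figure D3:**
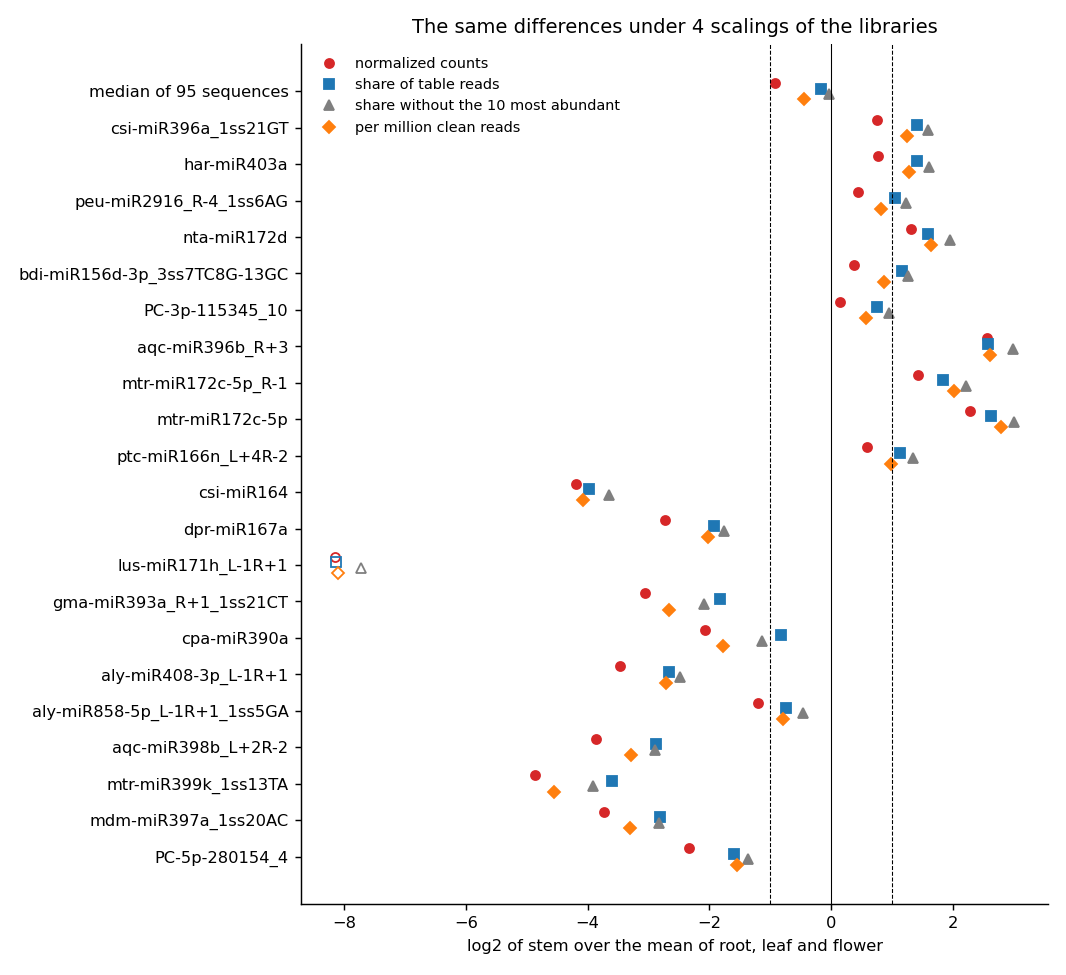
Log2 of stem over the mean of root, leaf and flower (horizontal) for the same 21 sequences and for the median of the 95, under normalized counts, shares of table reads, shares without the 10 most abundant sequences and reads per 1000000 clean reads. Dashed lines mark 2-fold differences and open symbols a bound at 3 stem reads. The 10 sequences with stem highest lie above 0 on each scaling, and the 11 that were lower in stem than the mean of the others lie below 0.

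Most stem reads came from 2 conserved sequences. The main miR166, bdi-miR166a-3p, which acts on HD-ZIP III factors of vascular and leaf polarity, made up 79.2% of stem table reads, and 72.7% for root, 79.5% for leaf and 90.7% for flower. By normalized counts it differed by -0.88, by shares by -0.03 and without root by -1.20, so neither its call nor its size held across these settings. The main miR159, ath-miR159a_R-1, against GAMYB factors, made up 12.7% of stem reads and differed by -0.46 by normalized counts and 0.12 by shares. A relative of miR159, vvi-miR319b_R-1, against TCP factors, had 1901 normalized counts in stem and 2981 in root, but 136 for leaf and 1100 for flower. Root and stem were high and leaf was low. The log2 difference was 0.44 (0.37 to 0.50), and stem lay below root. It was 1.62 without root and -0.10 without leaf.

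The small RNA machinery list had miR168, against the ARGONAUTE gene AGO1, and miR403, with a median of 0.31, and neither was past 2-fold by normalized counts. The sequence gma-miR168a had 1099 normalized counts in stem against 762 in root, 1875 in leaf and 1136 in flower, a difference of -0.19 (-0.29 to -0.10) that turned to 0.50 by shares. The star sequence mtr-miR396b-3p_L-1_1ss12CT had 819 for stem, 358 for root, 1124 for leaf and 206 for flower, a difference of 0.54 (0.42 to 0.66) that was 1.15 by shares, 1.54 without leaf and 0.14 without flower. The sequence rgl-miR5139_L-1 had 892 for stem, 1248 for root, 532 for leaf and 733 for flower, 0.09 (-0.01 to 0.19). In the remaining lists the 1 measured family each of NF-YA (miR169) and resistance genes (miR482) was not past 2-fold. Of the phase change families, miR172 was higher, miR529 was lower at 4 stem reads, and the miR156 sum differed by -0.42 on normalized counts and by 0.45 on shares. Among 5 listed families whose main sequence ends in CCA, the last bases of mature tRNAs, 1 was 2 times lower, miR894. Over all families 15 of 37 were. Of the 5, miR5139 and miR1511 share a sequence, and miR160, which also ends in CCA, was counted with the auxin families instead. Of 7 other abundant families, none was past 2-fold by normalized counts, with a median of -0.07, which was 0.70 by shares.

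Ratios of sequences within a library do not depend on the scaling. The ratio of csi-miR396a_1ss21GT to gma-miR396a-5p was 5.62 in stem (5.20 to 6.09), against 2.02 in root (1.88 to 2.16), 1.67 in leaf (1.52 to 1.84) and 3.73 in flower (3.30 to 4.22). The stem ratio was thus above all others beyond counting error, for a pair that differs at the last base. The ratio of har-miR403a to gma-miR168a was likewise highest in stem, 2.54 (2.40 to 2.70), against 1.70, 1.15 and 1.31 in root, leaf and flower. The ratio of nta-miR172d to rco-miR156f, of 2 families that oppose each other in phase change, was 1.18 in stem (1.003 to 1.40) and 1.33 in root (1.11 to 1.58), while leaf had 0.382 and flower 0.0353. Stem and root could not be told apart in this pair, which does not stand for the 2 families. Of miR156 reads rco-miR156f made up 44.2% in root and less in stem, where bdi-miR156b-5p_L+1_1ss20AC led with 36.7%. The described miR156 reads came to 882.25 in stem and 518.5 in root, beside 314 and 303.5 of nta-miR172d. Against that sum nta-miR172d was lower in stem than in root, and no interval was computed for it.

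Other ratios placed stem between tissues or near some of them. The ratio of ath-miR159a_R-1 to vvi-miR319b_R-1 was 18.2 in stem, 14.0 in root, 29.3 in flower and 502 in leaf, each with an interval clear of the others. The miR166 strands bdi-miR166a-3p and bdi-miR166e-5p had a ratio of 1225 in stem (1081 to 1393), close to 1280 in leaf and 1247 in flower and above 524 in root. The miR168 strands gma-miR168a and mtr-miR168c-3p had 5.25 in stem, 5.30 in root, 7.30 in leaf and 8.10 in flower, so stem was like root there.

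Shares of the sequences within a family are likewise free of the scaling. In stem 68.2% (67.0 to 69.4) of miR396 reads were csi-miR396a_1ss21GT and 12.1% (11.3 to 12.98) gma-miR396a-5p, where the other libraries had 46.9% to 71.6% and 19.2% to 28.1%. Of miR172 reads nta-miR172d made up 91.0% in stem, 91.6% in root and 92.2% in leaf, but 18.8% in flower, where tcc-miR172d_1ss1AT held 81.2%. Of miR171 reads, osa-miR171b made up 97.6% (83.9 to 100) of 21.2 in stem and 100% of 161 in flower. It made up 70.0% (38.6 to 90.9) of 13.3 in leaf, against 0.344% of 3343 in root. The stem thus resembled flower for miR171 and root and leaf for miR172. At these few reads the miR171 interval of leaf overlapped that of stem, so their likeness could not be judged. Within miR156, bdi-miR156b-5p_L+1_1ss20AC led in stem with 36.7% (33.5 to 40.0), and rco-miR156f led in root and flower with 44.2% and 37.5%. Differences of 20 percentage points or more between stem and the mean of the others were also found for miR398 and miR399, each with under 12 stem reads.

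**Figure D4:**
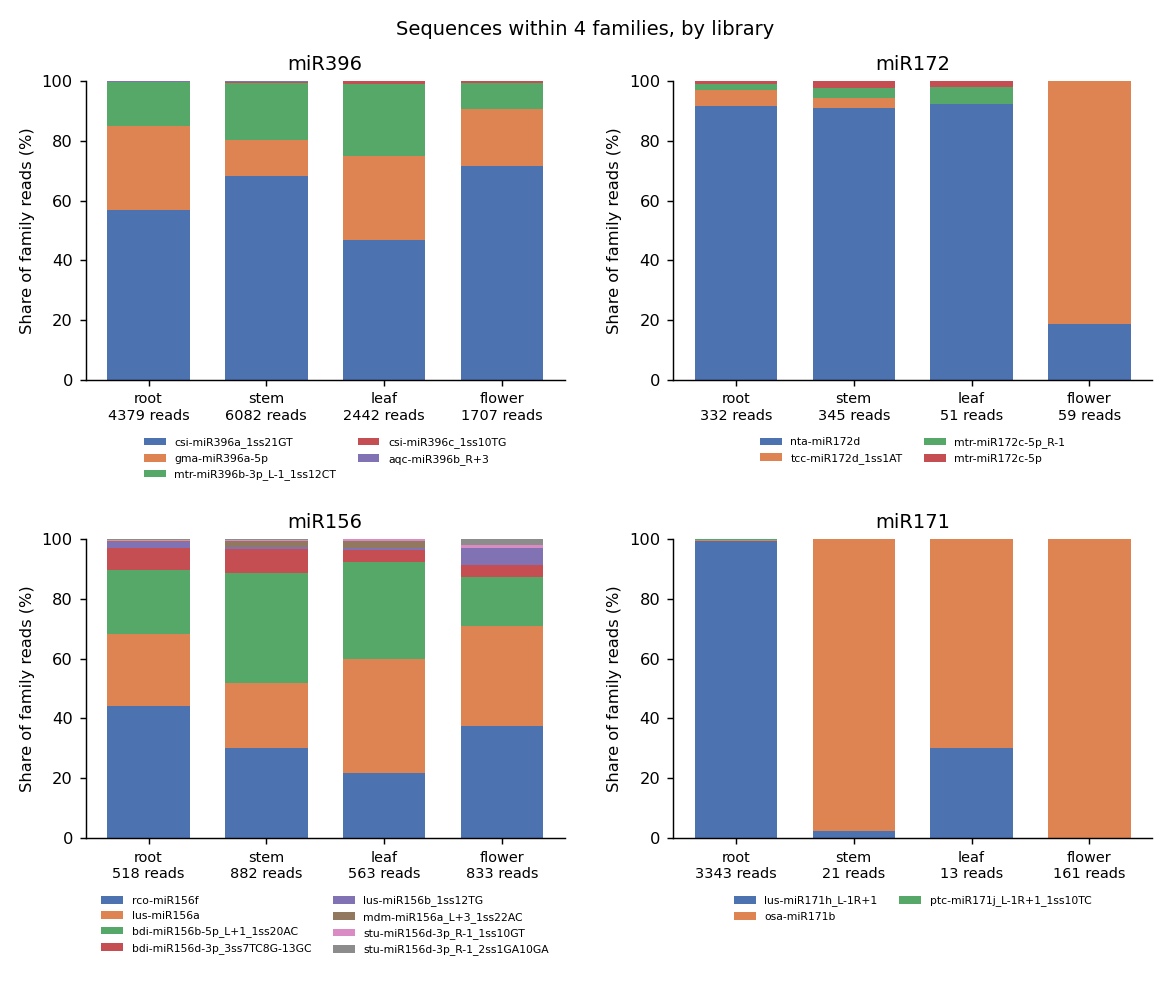
Share of each family's reads (vertical, percent) held by each sequence of miR396, miR172, miR156 and miR171 in root, stem, leaf and flower, with the family's reads under each bar. In stem the share of gma-miR396a-5p was the lowest of the 4 libraries at 12.1%, and the miR171 bar of stem was that of osa-miR171b, unlike the bar of root.

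Set against each tissue in turn, stem was nearest to leaf. Spearman's rho over the 95 sequences was 0.844 with leaf, 0.717 with root and 0.711 with flower, given as descriptions, since the sequences share libraries and depths. The median log2 difference by normalized counts was 0.19 from root, -0.54 from leaf and -1.23 from flower over sequences found in both, and by shares 0.20, 0.20 and 0.13. By normalized counts 35 sequences were at least 2 times higher and 24 at least 2 times lower than in root. The numbers were 22 and 31 against leaf, and 20 and 48 against flower. By shares 35 were higher and 21 lower than in leaf, and 36 higher and 27 lower than in flower, so the balance against leaf and against flower turned with the scaling. Against root the numbers were the same on both.

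As a whole the stem library was of middling evenness. The inverse Simpson number, the count of equally abundant sequences that would give the same evenness, was 1.55 for stem, 1.81 for root, 1.52 for leaf and 1.21 for flower. Without the main miR166 it was 2.57, 2.89, 1.81 and 3.38 in that order. Sequences of 21 nt held 84.6% of stem reads and those of 20 nt 13.8%, and 97.2% of stem reads began with T, the base that AGO1 prefers. Without the main miR166 these values were 25.8%, 66.5% and 86.4%. In the other libraries, with it, 81.7% to 94.3% of reads were of 21 nt and 94.5% to 98.4% began with T. Reads ending in CCA made up 2.19% for stem, 4.82% for root, 1.28% for leaf and 2.05% for flower.

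Among the predicted miRNAs the most read in stem was PC-3p-240808_5, with 2, 26, 16 and 39 reads in root, stem, leaf and flower. The predicted PC-3p-294250_4 had 42, 10, 9 and 10 reads, PC-3p-72449_18 had 16, 10, 0 and 3, and PC-5p-468508_3 had 36, 9, 0 and 0. The latter was thus found in root and stem alone. Of the 19 predicted sequences 12 were 2 times lower, where 45 of all 95 were, and none was 2 times higher.

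No well-read sequence was particular to stem. There were 15 sequences found in stem alone, each with under 3 reads, so their lack in the other libraries is within what depth allows. The most read was egu-miR172a_L+3 with 2.75 reads, a 24-nt form whose reads were divided over 33 table entries.

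Possible cleavage sites from the degradome, which sequences the 5′ ends of cut messenger RNAs, were listed for 9 of the 95 sequences. They made up 43 of 82 pairs, with 37 transcripts. The lowest p-value that the CleaveLand program gave any of these pairs was 0.070, for aly-miR858-5p_L-1R+1_1ss5GA. The library mixed the 4 tissues, so no site can be assigned to stem. None of the 4 sequences that were 2 times higher in stem had a pair. The sites of aly-miR858-5p_L-1R+1_1ss5GA, on 5 transcripts, were all in category 0, where the cleavage site is the highest position of the transcript, and its reads were divided over them, 33.4 to each. The pairs of csi-miR164 and lus-miR164a_R-1 fell on the same 2 transcripts, with 3 reads divided over them, 1.5 to each. Those of tcc-miR530b_R+1 had 1 read, divided over 2 transcripts. That sequence had 456 stem reads and a log2 difference of -0.18 that turned to 0.63 by shares. The others were aly-miR319a-5p_L-1R-1_1ss19TG with 1 stem read, han-miR3630-3p_L-2_1ss22TC with 58, osa-miR5072_L-4_1ss13GA with 145, PC-3p-72449_18 with 10 and gma-miR396a-5p, and their log2 differences ran from -1.62 (-4.56 to 1.33) for the first to 0.72 for PC-3p-72449_18.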

How the data were processed

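The libraries held small RNA of 4 tissues, 1 library each, and groups were taken from the sample labels. The authors kept reads of 18 to 25 nt, removed adapters and other RNA classes, and matched the rest to miRBase 20.0 and ESTs with ACGT101-miR 4.2. The deposited reads are estimated counts, since a read matching several entries was divided over them, and the deposited normalized counts are a signal, made by multiplying a library's reads by a constant. The degradome table, made with CleaveLand 3.0 and ACGT301-DGE 1.0, holds per the file headers a raw read count, a signal divided over matches, an alignment score and category, and a p-value, none of which entered the stem comparison.

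Entries were summed per distinct sequence, and sequences with 10 or more reads were described, as unrounded sums. Families are the numbers in the names. The sequence under both miR1511 and miR5139 is split between those families as the entries give it. Stem was set against the mean of root, leaf and flower, with 2-fold as the call. With 1 library per tissue no test between tissues was run, and no p-value is given for their differences. Intervals at 95% cover counting error only. They are exact Poisson for levels and normal on the log scale for log2 differences. Ratios of 2 libraries or sequences have exact binomial intervals and shares Clopper-Pearson ones, both on rounded reads. Those of log2 differences and of ratios of 2 libraries were tested on simulated data, at 10 or more expected reads in each library. Intervals at fewer reads, and those of levels and shares, were not tested. Under 1 stem read, 3 reads set a bound.

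Named sequences were those with stem highest (up to 15) or 2 times higher, the 12 most read that were 2 times lower, the 10 most read in stem, families with shares 20 percentage points apart, sequences with degradome pairs, the most read of stem alone and the 5 most read predicted. Further names were picked with their values in view. The members, lists and rule were chosen with earlier results of these data known. Alternatives covered scaling, the minimum of reads, the unit summed, the fold and leaving out each library. The 9 empty lines between the entries were not used here. Software was pandas 2.3.3, numpy 2.4.6, matplotlib 3.10.9 and scipy 1.17.1 under Python 3.11.15.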

Additional observations from a re-analysis of the deposited data

How the results depend on the processing

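The balance of high and low calls depended on the scaling and on the minimum of reads. In place of 4 sequences at least 2 times higher in stem, there were 17 by shares of table reads, 20 by shares without the 10 most abundant sequences, 12 per 1000000 clean reads, 11 with at least 3 reads, 1 with at least 30 reads, 14 with no minimum, 1 by family sums (55 units here, each predicted sequence counted as its own), 14 against the median of the others and 2 at 4-fold. In place of 45 at least 2 times lower, there were 25, 26 and 29 on the 3 other scalings in the same order, 26 with at least 30 reads, 26 by family sums, 29 against the median of the others and 25 at 4-fold. Centring the log2 values on their median, an alternative chosen after seeing the data, gave 24 higher and 25 lower.

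Stem was highest for 19, 27 and 20 sequences on the 3 other scalings in place of 10, for 16 with at least 3 reads, 6 with at least 30 reads, 37 with no minimum and 4 by family sums. It was lowest for 6, 7 and 9 on those scalings in place of 16. The median log2 difference of -0.92 became -0.16, -0.037 and -0.45 on them, -0.66 with at least 30 reads, -1.39 with no minimum and -0.31 against the median of the others.

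Leaving out 1 of the other libraries in turn gave 6 to 13 sequences higher, 26 to 44 lower, 18 to 21 with stem highest, 20 to 39 with stem lowest, and medians of -0.93 to -0.41. Without flower the low calls came to 26, and without leaf the high calls came to 13. Among named sequences past 2-fold, directions turned for cpa-miR390a, 0.77 against the median of the others and -2.61 to 1.03 over the left-out libraries, for osa-miR171b, -3.05 to 0.30, and for tcc-miR172d_1ss1AT, -2.29 to 0.67, the highest value of each being that without flower. Signs also turned under some setting for 9 named sequences that were not past 2-fold, among them vvi-miR319b_R-1 and gma-miR168a. Of the other values of named sequences under these settings, 158 moved by less than their counting interval and 153 by more. The cause of these shifts was not tested. No paired analysis was possible because each tissue has 1 library. With 19 of the 95 sequences at 1 to 3 stem reads, depth limits many single differences.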
